A study of Homo sapiens with 21 samples.

Results

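The aryl hydrocarbon receptor and its CYP1 targets were examined in MDA-MB-453 cells, a human breast cancer line, as the 6 genes AHR, ARNT, AHRR, TIPARP, CYP1A1 and CYP1B1 among the 58735 genes measured. The genes were chosen by name, and all 6 had a value in each of the 21 libraries. AHR is a transcription factor that sits in the cytoplasm with HSP90 and co-chaperones until a ligand, such as a dioxin, a polycyclic hydrocarbon or a tryptophan metabolite, is bound. It then enters the nucleus, pairs with ARNT and binds DNA at the xenobiotic response element, whose core is GCGTG. Its best known targets are CYP1A1 and CYP1B1, cytochrome P450 enzymes that oxidise polycyclic hydrocarbons and hydroxylate estradiol, the latter enzyme being expressed in many breast cells. A further pair of targets acts back on the receptor: AHRR competes for ARNT, and TIPARP adds ADP-ribose to AHR.

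The study used poly-A RNA sequencing to ask how calcium, cadmium and ligands of the estrogen-related receptor ESRRB act on this line, with 3 libraries in each of 7 groups of wild-type cells. The control group received no treatment. The other groups received 10 mM calcium, 10 μM cadmium, 5 μM GSK4716 (an ESRRB agonist) or 10 μM diethylstilbestrol (DES, an ESRRB antagonist) for 24 h, or DES together with calcium or cadmium. In these combined groups DES was given 3 h before the 24 h with the metal. The medium was serum-free for calcium and GSK4716 and held 1% charcoal-stripped serum for cadmium, GSK4716 and DES were dissolved in ethanol, and the medium of the control was not matched to each arm in the descriptions, so treatment and medium cannot be told apart in the comparisons with control. The study's methods name no ethanol for the metals alone. Where DES with a metal is compared with the metal alone, DES, its solvent and its 3 h earlier start therefore cannot be told apart. The descriptions do not say that the 3 libraries of a group came from separate cultures, so the p-values measure the spread between these libraries only.

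Levels are given in FPKM (fragments per kilobase of gene, scaled by a library size), a per-length scale on which genes can be compared. Divided by a library's fragments on genes, that library size came to between 1.003 and 1.15 in the 12 libraries without DES and between 0.693 and 1.05 in the 9 with DES, so it was not the plain fragment total. The libraries held 14435925 to 28424805 fragments on genes, with a median of 18314738. The 7 luminal markers (KRT8, KRT18, KRT19, GATA3, FOXA1, ERBB2 and EPCAM) summed to 1145 to 3288 FPKM per library and none was at 0 throughout a group, while the 3 basal markers summed to at most 1.77 FPKM. The leukocyte markers PTPRC and CD68 reached at most 1.05 FPKM together, and PECAM1 and ALB at most 0.218 and 0.571 FPKM. The fibroblast markers COL1A1, COL1A2 and PDGFRB summed to 9.35 to 32.9 FPKM. COL1A1 made up nearly all of this (9.34 to 32.7 FPKM), while COL1A2 and PDGFRB reached at most 0.0617 and 0.127 FPKM.

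The promoter stretches below show where the GCGTG core stood near the annotated starts, since 4 of the genes are themselves known AHR targets. RefSeq windows (build GRCh38.p14, 250 bases before to 50 bases after a start) were found for 5 of the 6 genes and searched on both strands for GCGTG. The core was absent from the ARNT window and from 2 of the 3 TIPARP windows. Each line gives 25 bases, 5′ to 3′ on the strand of the gene, with the core in capitals, written CACGC where the match lies on the opposite strand.
CYP1A1: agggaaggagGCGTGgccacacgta
AHRR, first window: cgggcggctcGCGTGccggggtggg
AHRR, second window: ggcGCGTGacaggcaggggccaccc
AHRR, second window: agaagggtggGCGTGtgcgcgcgtt
TIPARP: cgagaaaggaCACGCcccctcgcgg
TIPARP: aacgaacgcgCACGCgcgcgcaggg
AHR: tctgttccgagaGCGTGccccggac
The CYP1A1 stretch lies at chr15:74725571-74725595 on the minus strand, with the first base of the core at -57 from the start. The 3 AHRR stretches lie on the plus strand at chr5:321674-321698, chr5:322360-322384 and chr5:322558-322582, and the TIPARP stretches on the plus strand at chr3:156674372-156674396 and chr3:156674438-156674462. The AHR stretch, at chr7:17298677-17298701 on the plus strand, starts after the annotated start and overlaps an exon of GENCODE release 44, as do both TIPARP stretches and the last AHRR stretch, while the others overlap none. The letters GCGTG stood in 36.54% of all 35116 RefSeq windows, so a match is common. The longer TNGCGTG, found in 5.51% of windows, was present among these genes only in the first AHRR window.

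CYP1B1 was the only gene of the 6 whose level in every library with DES lay apart from that in every library without it. In the control it measured 59.5, 58.3 and 107 FPKM in replicates 1, 2 and 3. With DES alone it measured 19.0, 27.1 and 11.5 FPKM. The DES libraries lay below every control library, as 22.9% of all genes tested did. On the log2 scale of FPKM + 0.1, CYP1B1 fell by 1.98 with DES (SE 0.36, 95% interval -2.84 to -1.13, limma adjusted p = 0.00896). In this comparison 29.6% of the 14686 genes tested were called at an adjusted p under 0.05, 16.7% higher and 12.9% lower, and 2 of the 6 genes were called, CYP1B1 lower and TIPARP higher. The CYP1B1 call was lost in the fit without a filter (adjusted p = 0.0940). The summed leukocyte and fibroblast markers were also higher with DES (0.141 to 1.05 and 12.5 to 32.9 FPKM) than in the control (at most 0.0423 and 10.5 to 12.1 FPKM). The fibroblast sums were nearly all COL1A1, and PTPRC reached at most 0.0790 FPKM in any library, against 1.05 FPKM for CD68. Among the luminal markers GATA3 was lower with DES (112 to 140 FPKM) than in the control (225 to 301 FPKM), as was FOXA1 (53.2 to 101 against 147 to 180 FPKM). KRT8, KRT18, KRT19 and ERBB2 overlapped the control. The part of these markers in the result was not tested.

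CYP1B1 was also lower with DES and a metal than with the metal alone. With calcium CYP1B1 measured 59.99, 68.4 and 114 FPKM, and with DES and calcium 36.0, 32.2 and 15.2 FPKM. It fell by 1.57 (SE 0.39, adjusted p = 0.0220). With cadmium it measured 121, 115 and 89.7 FPKM, and with DES and cadmium 23.3, 17.8 and 20.02 FPKM. It fell by 2.40 (SE 0.22, adjusted p = 0.0181), the most precise of the 3 estimates. The call against calcium was lost without calcium replicate 2 (-1.66) or 3 (-1.30), and the call against cadmium when any 1 of the cadmium libraries (-2.54 to -2.32) or DES with cadmium replicate 3 (-2.40) was left out. In the fit without a filter neither was called (adjusted p = 0.262 and 0.0520). The summed leukocyte markers, mostly CD68, were higher with DES and calcium (0.370 to 0.872 FPKM) than with calcium (at most 0.184 FPKM). The summed basal markers were lower (0.117 to 0.219 against 0.318 to 0.644 FPKM). The part of these markers was not tested. These 3 comparisons share no library. Over all groups, the 9 libraries with DES ranged from 11.5 to 36.0 FPKM and the 12 without from 58.3 to 121 FPKM. Of the genes tested, 4.59% lay lower in every library with DES than in every library without it.

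Within each side of that gap the groups overlapped. Without DES the order of the mean CYP1B1 level was cadmium (109 FPKM ± 16.6, SD, n = 3), GSK4716 (94.1 ± 16.5), calcium (80.7 ± 28.9) and control (74.9 ± 27.7), and each neighbour overlapped the next. With DES it was DES and calcium (27.8 ± 11.05), DES and cadmium (20.4 ± 2.79) and DES alone (19.2 ± 7.79), again overlapping. The log2 difference between DES with cadmium and DES was 0.16 (95% interval -0.64 to 0.97), and between DES with calcium and DES 0.52 (-0.53 to 1.57). An antisense RNA, CYP1B1-AS1, overlaps the gene at a mean of 0.722 FPKM. The sources differ on the strand chemistry of the libraries, so the reads of the pair cannot be fully told apart.

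**Figure D1:**
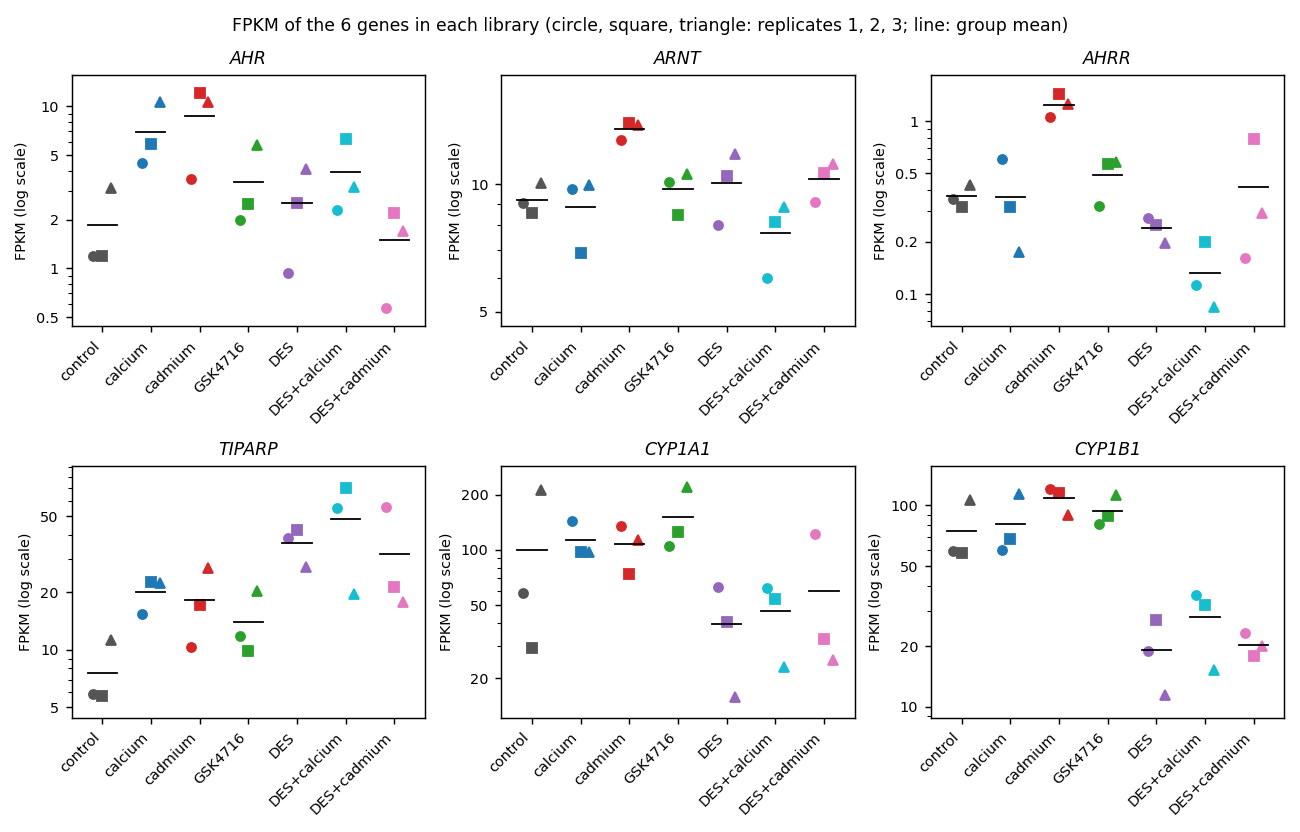
FPKM on a log scale for each of the 6 genes in the 21 libraries, with groups along the horizontal axis, circles, squares and triangles for replicates 1, 2 and 3, and a line at the group mean. The CYP1B1 points of the 3 groups with DES lie at 11.5 to 36.0 FPKM, under all points of the groups without DES at 58.3 to 121 FPKM.

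CYP1A1, the other target enzyme, had the widest spread among control libraries of the 6 genes. It measured 58.4, 29.0 and 212 FPKM in the control, a 7.30-fold range among 3 libraries of the same treatment. With DES it measured 62.5, 40.5 and 15.8 FPKM, so the groups overlapped. The log2 difference was -1.05 with an interval from -2.88 to 0.78 and was not called (adjusted p = 0.332). Leaving out 1 library gave CYP1A1 differences with DES from -1.70, without control replicate 2, to -0.27, without control replicate 3, and -0.50 without DES replicate 3, none of them called.

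Against calcium, where replicates were closer, DES with calcium gave a lower CYP1A1. The calcium libraries measured 144, 96.8 and 97.2 FPKM and those with DES and calcium 61.8, 54.2 and 22.8 FPKM. CYP1A1 fell by 1.38 (SE 0.39, adjusted p = 0.0353), in a comparison that called 35.1% of all genes tested, 16.5% lower. CYP1A1 and CYP1B1 were the 2 genes called of the 6, and both lay lower in all libraries with DES and calcium, as 25.1% of all genes did. The CYP1A1 call was lost when any 1 of the calcium libraries or DES with calcium replicate 2 was left out, at differences of -1.55 to -1.19, and also in the fit without a filter (adjusted p = 0.351) and with all 7 groups in 1 fit (adjusted p = 0.118). Against cadmium (135, 73.4 and 114 FPKM), DES with cadmium gave 122, 32.6 and 25.1 FPKM. The high first replicate overlapped the cadmium group, and the difference of -1.16 was not called (adjusted p = 0.233). Without that library the difference was -1.86 and passed the test.

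With GSK4716 CYP1A1 measured 105, 126 and 221 FPKM, the highest group mean at 151 FPKM, followed by calcium (113), cadmium (107), control (99.8), DES with cadmium (59.99), DES with calcium (46.3) and DES (39.6), every neighbouring pair overlapping. The spread among control libraries set wide intervals for the log2 difference from control, from -1.07 to 2.34 with calcium, -1.19 to 2.28 with cadmium and -0.80 to 2.81 with GSK4716. The FPKM ratio of CYP1A1 to CYP1B1 was 1.15 ± 0.76 in the control and 2.05 ± 1.07 with DES (SD, n = 3), with overlapping ranges. CYP1A1 has no overlapping gene in the annotation searched.

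TIPARP, the ADP-ribosyltransferase that acts back on AHR, moved the other way from CYP1B1 with DES. It measured 5.88, 5.75 and 11.2 FPKM in the control and 38.4, 42.5 and 27.2 FPKM with DES. All DES libraries lay above all control libraries, as 25.9% of all genes did. TIPARP rose by 2.27 on the log2 scale (SE 0.30, interval 1.56 to 2.98, limma adjusted p = 0.00325).

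TIPARP also rose with calcium, to 15.5, 22.5 and 22.3 FPKM, again above every control library, as 16% of all genes tested were. The log2 difference was 1.44 (SE 0.30, adjusted p = 0.0471), close to the threshold, in a comparison that called 7.12% of all genes tested, 4.6% higher, and TIPARP was the only gene of the 6 called. The call was lost when control replicate 1 or 2 or any calcium library was left out (differences of 1.27 to 1.62) and was kept without control replicate 3 (1.75). It was also lost without the filter (adjusted p = 0.250), with total-fragment scaling (0.0511) and with all 7 groups in 1 fit (0.106). The summed luminal markers were also higher with calcium (2345 to 3288 FPKM) than in the control (1419.7 to 1775 FPKM). KRT8 (group means of 180 in the control and 626 FPKM with calcium), KRT18 (174 and 553), KRT19 (572 and 1118) and EPCAM (87.5 and 116) were higher. GATA3 (268 and 263 FPKM), FOXA1 (168 and 148) and ERBB2 (126 and 139) overlapped the control. The summed fibroblast markers, nearly all COL1A1, were also higher (14.1 to 17.1 against 10.5 to 12.1 FPKM), with 1 of the 3 at 0 throughout the calcium group. So were the summed basal markers (0.318 to 0.644 against 0.0667 to 0.202 FPKM). The part of these markers in this result was not tested.

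With cadmium TIPARP measured 10.3, 17.2 and 26.9 FPKM and with GSK4716 11.8, 9.85 and 20.3 FPKM, both overlapping the control. The differences were 1.21 (0.19 to 2.22, adjusted p = 0.147) and 0.87 (-0.02 to 1.77, adjusted p = 0.315). The groups with DES and a metal were the most uneven for this gene. DES with calcium gave 55.0, 70.4 and 19.5 FPKM and DES with cadmium 55.6, 21.3 and 17.7 FPKM. Neither differed from DES alone beyond its error (0.26, interval -0.92 to 1.43, and -0.36, interval -1.45 to 0.73). With 1 library left out, the difference of DES with cadmium from DES ranged from -0.86 to -0.04. Relative to the metal alone, TIPARP differed by 1.09 with calcium (adjusted p = 0.115) and 0.71 with cadmium (adjusted p = 0.385), neither called. The TIPARP difference for cadmium ranged from 0.20, without DES with cadmium replicate 1, to 1.04 when 1 library was left out, and was 0.36 without cadmium replicate 1. The calcium difference passed the test with limma-voom on fragments recovered from the FPKM values (1.10, adjusted p = 0.0439, where 39.2% of all genes were called) and without DES with calcium replicate 3 (1.65, adjusted p = 0.0110). It passed in no other alternative (adjusted p up to 0.701).

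The order of mean TIPARP levels was DES with calcium (48.3 FPKM), DES (36.0), DES with cadmium (31.5), calcium (20.1), cadmium (18.1), GSK4716 (13.999) and control (7.61), with each neighbour overlapping the next. TIPARP-AS1 lies on the opposite strand at a mean of 0.378 FPKM, against 17.7 FPKM in the lowest TIPARP library with DES. The FPKM ratio of TIPARP to CYP1B1 was 0.101 ± 0.00360 in the control and 1.99 ± 0.402 with DES (SD, n = 3). It ranged from 0.885 to 2.38 over the libraries with DES and from 0.0854 to 0.329 over those without. Since CYP1B1 alone already separated these libraries, the gap in the ratio is a description and not a further result.

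**Figure D2:**
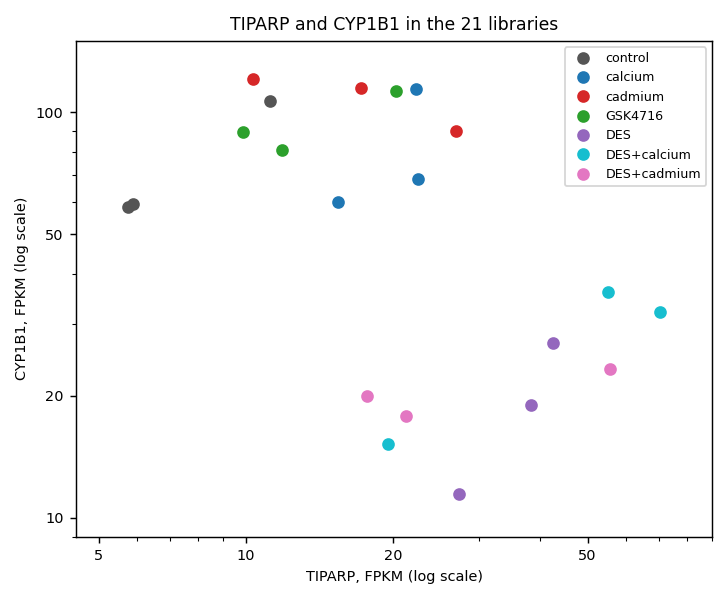
TIPARP (horizontal axis) against CYP1B1 (vertical axis), both in FPKM on log scales, with 1 point for each of the 21 libraries coloured by group. The points with DES lie below 36.0 FPKM of CYP1B1 and at or above 17.7 FPKM of TIPARP, and in TIPARP they overlap the calcium, cadmium and GSK4716 points.

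AHR, the receptor itself, was a gene of low to moderate level with wide replicate spread. It measured 1.20, 1.19 and 3.15 FPKM in the control. With calcium it measured 4.46, 5.87 and 10.6 FPKM and with cadmium 3.54, 12.1 and 10.6 FPKM. Neither metal group overlapped the control, each lying above it throughout, as did 16% (calcium) and 17.7% (cadmium) of all genes tested. Neither difference was called. It was 1.91 with calcium (SE 0.48, 0.74 to 3.09, adjusted p = 0.0718) and 2.14 with cadmium (SE 0.58, 0.72 to 3.56, adjusted p = 0.105). Each passed the test in some of the 16 alternatives. With calcium 5 passed, including a replicate block given below, and the adjusted p reached up to 0.353 in the others. With cadmium 2 passed, and it reached up to 0.415 in the others. The calcium difference passed with a filter at 2 FPKM (adjusted p = 0.0382), with limma-voom (0.0129, where 10.8% of all genes were called), with a filter of at least 10 fragments on average, added after the data were seen (0.0337), and without control replicate 3 (2.35). The cadmium difference passed with all 7 groups in 1 fit (0.0478) and without cadmium replicate 1 (2.69).

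With GSK4716 AHR measured 1.97, 2.51 and 5.74 FPKM and with DES 0.94, 2.52 and 4.11 FPKM, overlapping the control in both cases. DES with calcium gave 2.28, 6.30 and 3.19 FPKM. DES with cadmium gave 0.57, 2.20 and 1.71 FPKM, all below the cadmium libraries. Of all genes 21.4% lay lower in that way, and of the 6 AHR, ARNT, AHRR and CYP1B1 did. The difference from cadmium alone was -2.47 (SE 0.65, -4.01 to -0.92) and missed the threshold (adjusted p = 0.0580). It passed in 5 of 16 alternatives, with pseudocount 1 (0.0462), a filter at 2 FPKM (0.0428), all 7 groups in 1 fit (0.00575), limma-voom (0.0388, where 12.3% of all genes were called) and the filter of at least 10 fragments (0.0426). In the others the adjusted p reached up to 0.269. The difference of DES with cadmium from DES alone was -0.68 (-2.32 to 0.97), and ranged from -1.24 to -0.14 with 1 library left out.

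Mean AHR levels ran from cadmium (8.72 FPKM ± 4.55, SD, n = 3) and calcium (6.97 ± 3.21) through DES with calcium (3.92), GSK4716 (3.41), DES (2.52) and control (1.85) to DES with cadmium (1.49 ± 0.84). No neighbours in that order were separated. The lowest library, DES with cadmium replicate 1, held 74 AHR fragments and the highest 1984.

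ARNT, the partner that AHR needs for DNA binding, was the steadiest of the 6. It ranged from 6.01 to 13.96 FPKM over the 21 libraries. It measured 9.02, 8.55 and 10.1 FPKM in the control and 12.7, 13.96 and 13.8 FPKM with cadmium. All cadmium libraries lay above all control libraries, as 17.7% of all genes did, by 0.55 on the log2 scale (SE 0.12, 0.25 to 0.85, adjusted p = 0.0834), which was not called. Cadmium was also the only group whose range of ARNT did not overlap its neighbour in the order of means, DES with cadmium, at 9.10, 10.6 and 11.1 FPKM. That difference was -0.39 (adjusted p = 0.211).

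The other groups overlapped the control for ARNT. They measured 9.73, 6.89 and 9.94 FPKM with calcium, 10.1, 8.45 and 10.6 with GSK4716, and 8.01, 10.5 and 11.8 with DES. DES with calcium had the lowest mean, from libraries at 6.01, 8.17 and 8.85 FPKM. The FPKM ratio of AHR to ARNT was below 1 in 20 of 21 libraries, since it reached 1.07 in a calcium library, and its mean was lowest in DES with cadmium (0.141 ± 0.0732) and highest with calcium (0.792 ± 0.308).

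AHRR, the repressor that competes with AHR for ARNT, was near the lower limit of these libraries, with 10 to 223 fragments each. It measured 0.355, 0.321 and 0.426 FPKM in the control and 1.05, 1.43 and 1.25 FPKM with cadmium. The cadmium libraries lay above those of the control, as did 19.3% of the 15317 genes with a mean of at least 10 fragments, and above those of every other group, as did 2.96% of them. The nearest other library reached 0.789 FPKM, in DES with cadmium. Since the mean over all libraries was under the filter of 0.5 FPKM, AHRR was read from the fit of all 58735 genes, where the difference was 1.52 (SE 0.17, 1.08 to 1.96). Its p of 0.000323 was the smallest of the 6 genes in this comparison, but adjusted over all genes of the file by limma it was 0.135 and not called. In that fit 0.0477% of genes were called. Tested among the 15317 genes, a filter added after the data were seen, the same difference had an adjusted p of 0.0336, where 3.85% of genes were called.

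With DES, AHRR measured 0.276, 0.250 and 0.197 FPKM, all below the control, as 23.2% of the 15317 genes were, by -0.45 (-1.11 to 0.20, adjusted p = 0.694). DES with calcium had the lowest mean, from libraries at 0.112, 0.199 and 0.0845 FPKM that overlapped those of DES, while DES with cadmium gave 0.162, 0.789 and 0.294 FPKM, below all cadmium libraries, as 23.3% of the 15317 genes were (difference -1.57, adjusted p = 0.331). This difference from cadmium passed the test only with all 7 groups in 1 fit (limma adjusted p = 0.0209), and reached up to 0.747 in the other alternatives. The calcium libraries, at 0.601, 0.320 and 0.175 FPKM, and the GSK4716 libraries, at 0.324, 0.565 and 0.579 FPKM, overlapped the control. The AHRR gene overlaps PDCD6 on the same strand, which had a mean of 7.05 FPKM, so how reads in shared exons were assigned could bear on the low values of AHRR.

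Read by treatment, cadmium gave 0 calls among the 6 genes by limma, where 0.15% of all genes were called, although all 6 differences were positive and 4 (AHR, ARNT, AHRR and TIPARP) had an unadjusted p under 0.05, as 25.9% of all genes did. With limma-voom 1 gene (AHRR) was called, from the fit of all 58735 genes, of which 1.5% were called. The summed basal markers were also higher with cadmium (0.532 to 1.77 FPKM) than in the control (0.0667 to 0.202 FPKM), and their part was not tested. GSK4716 gave 0 calls among the 6 and 0% over all genes, although again all 6 differences were positive, from 0.08 for ARNT to 1.00 for CYP1A1. With 1 library left out, ARNT ranged from 0.010 to 0.17, and CYP1A1 from 0.36, without control replicate 2, to 1.79, without control replicate 3. None of the 6 had an unadjusted p under 0.05 with GSK4716, against 16.4% of all genes, and limma-voom called 0 of them and 0.538% of all genes. The cadmium and GSK4716 comparisons share the control libraries, in which the 6 genes varied together, so the 6 positive signs are not separate findings. Over all genes tested the median difference was 0.041 with cadmium and 0 with GSK4716. DES with a metal did not differ detectably from DES alone for any of the 6, with 0 calls by limma or limma-voom and 0 unadjusted p under 0.05. The calls over all genes made up 0.136% (calcium) and 0.266% (cadmium), and an unadjusted p under 0.05 was found for 13.2% and 10.4%. Where DES with cadmium was compared with cadmium, CYP1B1 was the only gene called, and 9.89% of all genes were, 5.13% lower.

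Whether DES altered the response to a metal was tested as an interaction. None of the 6 was called for calcium, where 3.63% of all genes were, or for cadmium, where 1.18% were, and limma-voom also called 0. For cadmium 2 genes had an unadjusted p under 0.05, as 18.5% of all genes did. AHR differed by -2.82 (SE 0.94, adjusted p = 0.144), that is, the difference made by cadmium was lower with DES, and TIPARP differed by -1.57 (SE 0.65, adjusted p = 0.232). For calcium 0 genes did, against 19.9% of all genes, the nearest being TIPARP at -1.18 (SE 0.60, adjusted p = 0.301). For CYP1B1 the interactions were 0.41 (-0.84 to 1.67) with calcium and -0.42 (-1.42 to 0.58) with cadmium. With 1 library left out they ranged from 0.086 to 0.80 and from -0.75 to -0.13, and the TIPARP interaction with calcium from -1.55 to -0.63.

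**Figure D3:**
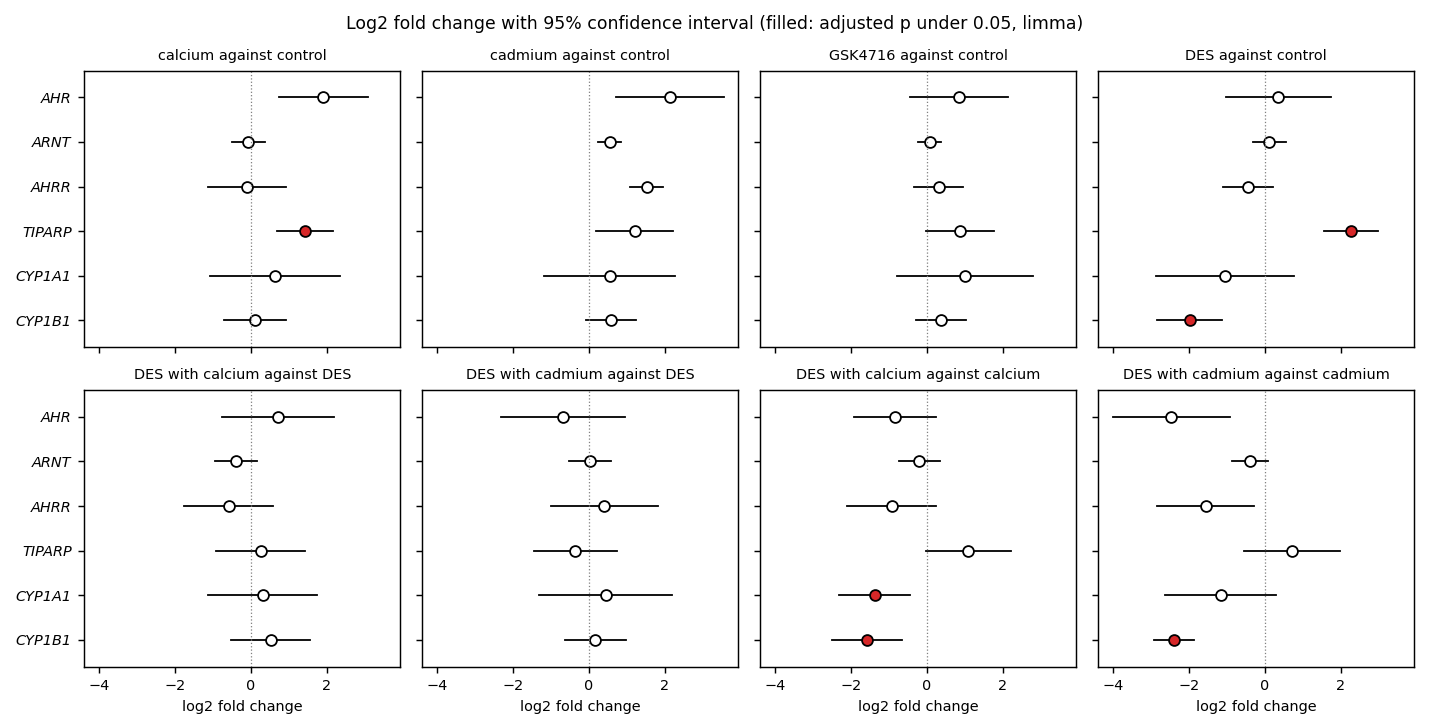
Log2 fold change on the FPKM + 0.1 scale with its 95% confidence interval for each gene in the 8 pairwise comparisons, filled where the limma adjusted p was under 0.05. CYP1B1 is filled on the lower side in the 3 comparisons that set a DES group against its counterpart without DES, and TIPARP on the higher side with DES and with calcium.

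Part of the spread within groups was shared by the 6 genes. Control replicate 3 was the highest and control replicate 2 the lowest of its group for all 6, whereas these libraries were highest and lowest for 38.6% and 33.2% of all genes tested. GSK4716 replicate 3 was likewise highest for all 6, against 31.6% of all genes. No other library was highest or lowest of its group for more than 4 of the 6. In the DES group replicate 3 was lowest for CYP1A1, CYP1B1, TIPARP and AHRR and highest for AHR and ARNT. The 4 comparisons with the control share these control libraries, and what sets control replicate 3 apart was not tested.

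**Figure D4:**
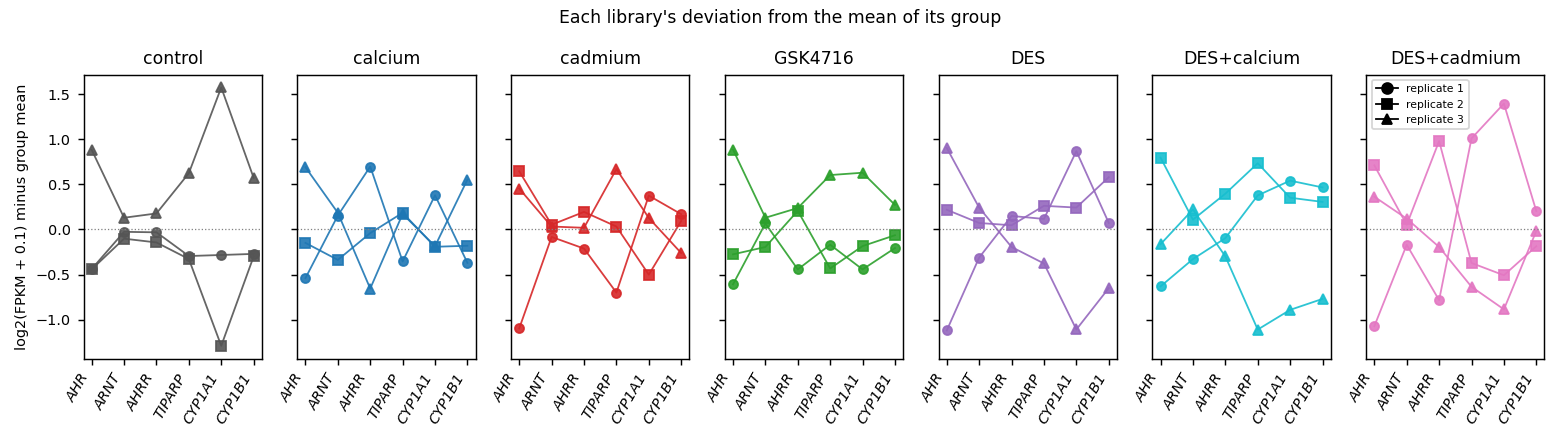
Deviation of each library from the mean of its group in log2(FPKM + 0.1), with the 6 genes along the horizontal axis of each panel and lines joining the values of a replicate. Control replicate 3 and GSK4716 replicate 3 (triangles) lie above the other libraries of their group for all 6 genes, and control CYP1A1 spans 29.0 to 212 FPKM.

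Around the receptor, 29 further genes of the pathway were read in 6 lists, of which 19 passed the filter. With calcium, cadmium or GSK4716 against control, and with DES and a metal against DES, limma called 0 of the 19, with 3, 3, 1, 1 and 0 at an unadjusted p under 0.05 against 23.5%, 25.9%, 16.4%, 13.2% and 10.4% of all genes, and limma-voom called 1 of them, ALDH3A1 with cadmium, where it called 3.28% of all genes. With DES, 3 rose and 4 fell (29.6% of all genes were called). With DES and calcium against calcium 3 rose and 2 fell (35.1%), and with DES and cadmium against cadmium 1 rose and 1 fell (9.89%).

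The chaperone list, the proteins that hold unliganded AHR in the cytoplasm, held all of the rises. Its 3 genes had a median difference of 1.60 with DES. HSP90AB1, an HSP90 isoform, measured 468 to 525 FPKM in the control and 1375 to 1638 FPKM with DES, and rose by 1.60 with DES (SE 0.24, adjusted p = 0.00486), 1.67 with DES and calcium against calcium (adjusted p = 0.00344) and 2.16 with DES and cadmium against cadmium (adjusted p = 0.0449). The 9 libraries with DES, at 1375 to 2515 FPKM, lay above the 12 without, at 307 to 743 FPKM, as 4.14% of genes tested did. The inducible isoform HSP90AA1 rose by 2.71 with DES (235 to 348 FPKM in the control, 1335 to 2149 with DES) and by 2.74 with DES and calcium against calcium. Its value in cadmium replicate 3 was 2123 FPKM, against 310 and 586 FPKM in the other cadmium libraries, and the difference from cadmium was not called. PTGES3, the co-chaperone p23, rose by 1.06 with DES and 1.61 with DES and calcium against calcium.

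The coregulator list held most of the falls. NCOA2 and NCOA3, nuclear receptor coactivators, fell by 1.37 (SE 0.18) and 0.91 (SE 0.17) with DES. EP300, a histone acetyltransferase, fell by 0.55 with DES (SE 0.16, adjusted p = 0.0406) and by 0.98 with DES and calcium against calcium, where NCOA3 fell by 0.96. NCOA2, NCOA3 and EP300 each lay lower in all 9 libraries with DES than in the 12 without, as 4.59% of all genes did. EPAS1, a hypoxia factor that also pairs with ARNT, fell by 0.70 with DES (SE 0.19, adjusted p = 0.0309) and by 1.14 with DES and cadmium against cadmium (adjusted p = 0.0405). HIF1A was not called in any comparison.

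Of 8 detoxification targets, 5 passed the filter and 0 were called in any comparison by limma. ALDH3A1, an aldehyde dehydrogenase, measured 0.142, 0.0483 and 0.556 FPKM in the control and 4.65, 2.82 and 1.75 FPKM with cadmium, all above the control, as 17.7% of all genes tested were. The log2 difference was 3.36 (SE 0.63, limma adjusted p = 0.0653), from control libraries that held only 4 to 36 fragments of the gene. It was 1.99 (adjusted p = 0.0672) for DES against control, 1.69 (adjusted p = 0.0632) for DES with calcium against calcium and -1.64 (adjusted p = 0.124) for DES with cadmium against cadmium. Limma-voom called ALDH3A1 with cadmium (3.28% of all genes called), with DES (32.5%) and with DES and calcium against calcium (39.2%). ALDH3A1 was named after its values were seen. CYP1A2, the neighbour of CYP1A1 on chromosome 15, was picked out after its values were seen because it is a CYP1 gene. Its range within a group was wider than that of CYP1A1 in 6 of the 7 groups and narrower with GSK4716 (1.70-fold against 2.10-fold), with 4.22 to 95.03 FPKM in the control, 55.8 to 185 FPKM with cadmium and 3.76 to 43.4 FPKM with DES. The difference from control was 2.40 with cadmium (-0.39 to 5.18) and -0.43 with DES (-3.45 to 2.59). IDO1 and IDO2, enzymes that make the AHR ligand precursor kynurenine, were at or near 0, at most 0.0137 and 0.0543 FPKM, and TDO2, an enzyme of the same step, ranged from 0.301 to 13.5 FPKM without a call.

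**Figure D5:**
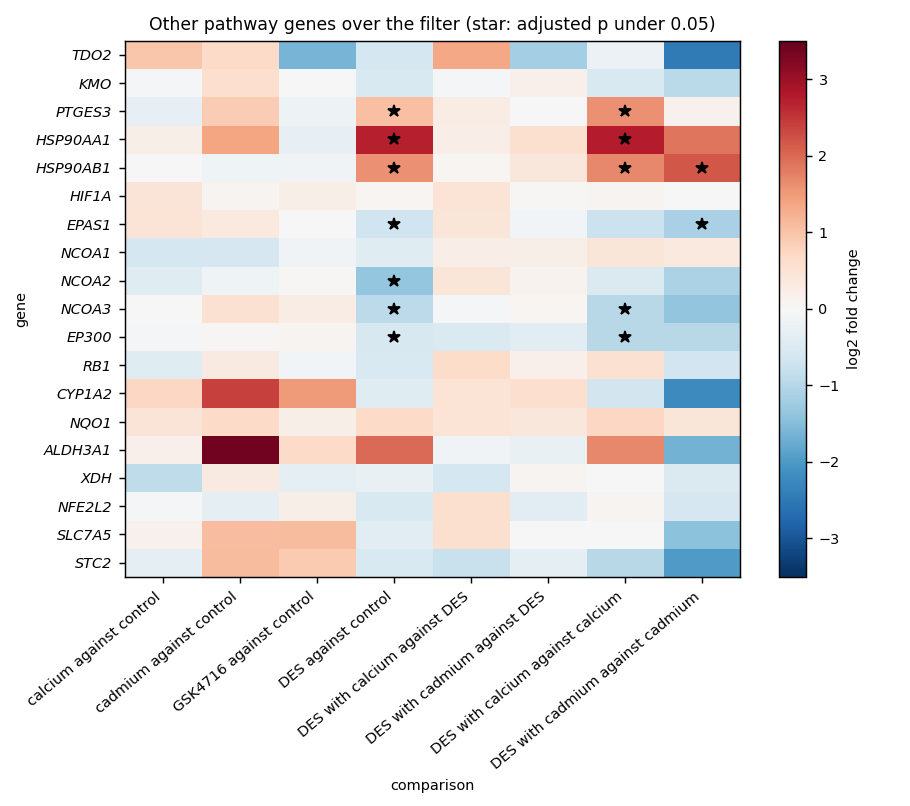
Log2 fold change of the 19 further pathway genes over the filter (rows) in the 8 pairwise comparisons (columns), red for higher and blue for lower, with a star where the limma adjusted p was under 0.05. The starred rises are HSP90AA1, HSP90AB1 and PTGES3 and the starred falls NCOA2, NCOA3, EP300 and EPAS1, all in comparisons of a DES group with its counterpart without DES.

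The genes most like each of the 5 members over the filter, across the 21 libraries, by Pearson correlation of log2(FPKM + 0.1) among the genes tested, were found as a description. The points share library depth and treatment groups. CYP1B1 was closest to ZBED4 (r = 0.94), TMEM192 and BTBD7, and its levels with and without DES form separate ranges, as given above. CYP1A1 was closest to TRIM16L (r = 0.90), ERMP1 and MTMR12. TIPARP was closest to JUND (r = 0.91), PATJ and MRPL33. AHR was closest to ADAM9 (r = 0.89), SMPDL3A and JAG1, and ARNT to IMPA1 (r = 0.87), AL139260.1 and IL23A. None of these 5 was among the 3 genes nearest to another. AHRR, under the filter, was not included.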

How the data were processed

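Poly-A RNA from 21 libraries of MDA-MB-453 cells was sequenced as paired 150-base reads. The authors deposited FPKM per gene; the submitters' processing notes list HISAT2 2.0.5, featureCounts 1.5.0-p3 and GRCh38.p14. The study's methods name DESeq2 and edgeR, which were not run here because the deposited unit is FPKM. Genes with a mean of at least 0.5 FPKM (14686 of 58735) were tested on log2(FPKM + 0.1) with limma 3.58.1 (moderated, with trend; R 4.3.3), only the compared groups in each fit, two-sided, with Benjamini-Hochberg adjustment over all genes tested and a threshold of 0.05. The differences understate changes of low genes. AHRR, under the filter, came from the same fit without it. FPKM times gene length gave whole fragments for 100% of values (tolerance 0.05), which were used in alternatives with limma-voom and with scaling to total fragments. Scripts were tested on simulated data.

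Named were the 6 genes in each comparison, every gene of the 29-gene pathway list that passed the test, and the 3 nearest genes by correlation. HIF1A, CYP1A2, ALDH3A1, IDO1, IDO2 and TDO2 were named outside this rule after their values were seen. The genes, lists and markers were chosen with earlier results of these data known, and 2 genes of them are not reported here. The most alike pair of libraries shared equal fragments for 1.16% of genes, so no library was counted as a duplicate. Replicate numbers are only names in the labels. Their deviations from the group means correlated above 0.1 in all 3 pairs for DES with calcium against DES (0.103 to 0.280) and DES with cadmium against DES (0.121 to 0.472) and in no other pairwise comparison.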

Additional observations from a re-analysis of the deposited data

How the results depend on the processing

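The number of the 6 genes called changed with the settings. With calcium (1 called) it was 0 without the filter, with total-fragment scaling and with all 7 groups in 1 fit, and 2 with a filter at 2 FPKM, with limma-voom and with at least 10 fragments, the last chosen after seeing the data. With cadmium (0) it was 1 with all 7 groups, limma-voom or the 10-fragment filter. With DES (2) it was 1 without the filter. For DES with calcium against calcium (2) it was 0 without the filter, 1 with all 7 groups (CYP1A1 lost) or the replicate block (CYP1B1 lost, adjusted p = 0.0551) and 3 with limma-voom (TIPARP added). For DES with cadmium against cadmium (1) it was 0 without the filter or with the block (CYP1B1, adjusted p = 0.0656), 3 with all 7 groups (AHRR also added), and 2 with pseudocount 1, the 2 FPKM filter, limma-voom or the 10-fragment filter, AHR being added in each of these. With the block, the cadmium interaction called 1 gene (AHR, adjusted p = 0.0378) against 0, and with calcium the block lost TIPARP (adjusted p = 0.0728) and gained AHR (0.0439). The block changed no other call, and outside the comparisons of DES and a metal with DES the samples share only a number. Leaving out 1 library gave 0 to 2 calls with calcium, 0 to 1 with cadmium, 0 to 3 for DES with calcium against calcium and 0 to 2 for DES with cadmium against cadmium. GSK4716, DES with a metal against DES, and the calcium interaction gave 0 under each alternative run. TIPARP with DES was called under all 16 alternatives and CYP1B1 under all but no filter (adjusted p = 0.0940). Apart from fewer genes or samples tested, the cause of these shifts was not tested.

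Total-fragment scaling moved the median of all genes to between -0.0107 and -0.385, and turned the differences of CYP1B1 with calcium (-0.0078), ARNT with DES (-0.057) and, for DES with cadmium against DES, ARNT (-0.177) and CYP1B1 (-0.055), none of them called. Leaving out 1 library turned uncalled differences, which then ranged, with calcium, from -0.16 to 0.10 for ARNT, -0.45 to 0.22 for AHRR, -0.0088 to 1.42 for CYP1A1 and -0.16 to 0.40 for CYP1B1. They ranged with cadmium from -0.098 to 1.33 for CYP1A1, and with DES from -0.097 to 0.91 for AHR and -0.0036 to 0.27 for ARNT. For DES with calcium against DES they ranged from -0.11 to 0.81 for TIPARP and -0.24 to 0.76 for CYP1A1, and for DES with cadmium against DES from -0.12 to 0.16 for ARNT, -0.079 to 0.80 for AHRR, -0.26 to 0.88 for CYP1A1 and -0.16 to 0.45 for CYP1B1. The interactions of CYP1A1 ranged from -1.11 to 0.32 with calcium and -0.89 to 0.54 with cadmium. With 3 libraries a group, and 10 to 223 fragments for AHRR, small differences were not detectable.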
